A study of Mus musculus with 9 samples.

Results

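Heat shock proteins and co-chaperones were described through 37 genes, chosen by gene symbol, out of 24421 genes with counts. All 37 had enough counts to be tested. They were measured in allograft tumors grown from bEnd.3 cells, mouse endothelial cells that carry polyoma middle T antigen, in the right flank of male athymic Nu/Nu nude mice. The study asked what the R-isomer of propranolol, the form with little beta-blocking activity, does to this model of infantile hemangioma. RNA was sequenced from 4 tumors of the vehicle group and 5 of the R-propranolol group, in 1 library each. All mice were injected intraperitoneally 5 times a week, and R-propranolol was begun on the second day after the cells were given. The vehicle was ethanol in DPBS, a phosphate-buffered saline, and R-propranolol was given in this vehicle at 6 mg/kg/day. Nude mice lack mature T cells, every tumor came from the same transformed line, and the age of the mice was not stated. The library titles of vehicle-treated tumors 1 and 2 carry the same number and those of the other tumors carry different ones. The sources do not say what this number marks, and if these 2 tumors shared an animal they were not independent, so p-values measure the spread between these samples.

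Heat shock proteins are molecular chaperones that bind unfolded or partly folded proteins and help them to fold, to be held in solution or to be passed on for degradation. The Hsp70 proteins work in cycles of ATP binding in which J proteins (the Dnaj genes) deliver the client and start ATP hydrolysis, while exchange factors such as the Hsp110 proteins and Bag3 release it. Hsp90 completes the folding of kinases and receptors together with its own co-chaperones, and the small heat shock proteins hold clients without ATP. Heat, proteotoxic stress and handling of tissue activate the transcription factor Hsf1, which binds repeated inverted units of the letters nGAAn, the heat shock element, in the promoters of the inducible genes.

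The members Hspa1b, Hspa1a, Dnajb1 and Dnajb4 carried the largest positive differences outside the small heat shock proteins once a tumor rich in muscle RNA was left out, and their promoters are shown for that reason. The sequences are the 250 bases before an annotated start, from RefSeq on GRCm38.p6, written 5′ to 3′ along the gene, with capitals marking matches to GAANNTTC or TTCNNGAA, which are 2 inverted heat shock element units and read the same on both strands. Hspa1b was read from chr17:34959239-34959488 (minus strand), Hspa1a from chr17:34972157-34972406 (minus strand), Dnajb1 from chr8:83607925-83608174 (plus strand) and Dnajb4, at an internal start of the gene, from chr3:152193846-152194095 (minus strand).
Hspa1b: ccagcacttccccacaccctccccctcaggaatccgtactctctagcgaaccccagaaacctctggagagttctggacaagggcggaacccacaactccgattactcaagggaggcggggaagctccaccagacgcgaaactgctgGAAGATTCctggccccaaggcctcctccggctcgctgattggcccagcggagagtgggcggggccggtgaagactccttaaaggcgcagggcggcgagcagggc
Hspa1a: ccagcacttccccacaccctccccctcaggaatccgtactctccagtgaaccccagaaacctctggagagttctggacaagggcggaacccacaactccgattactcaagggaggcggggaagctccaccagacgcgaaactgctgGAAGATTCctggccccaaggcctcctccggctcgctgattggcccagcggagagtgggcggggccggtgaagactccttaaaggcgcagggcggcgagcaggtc
Dnajb1: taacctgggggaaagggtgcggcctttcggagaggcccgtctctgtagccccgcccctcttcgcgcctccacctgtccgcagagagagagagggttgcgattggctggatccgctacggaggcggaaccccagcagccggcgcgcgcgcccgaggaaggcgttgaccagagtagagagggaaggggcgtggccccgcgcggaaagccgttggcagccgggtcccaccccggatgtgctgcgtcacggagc
Dnajb4: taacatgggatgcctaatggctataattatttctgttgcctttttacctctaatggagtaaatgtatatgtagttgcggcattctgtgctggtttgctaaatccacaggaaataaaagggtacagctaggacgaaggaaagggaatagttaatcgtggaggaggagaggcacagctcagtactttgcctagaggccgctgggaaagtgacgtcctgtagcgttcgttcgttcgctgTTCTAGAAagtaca
The Hspa1b and Hspa1a stretches were identical at 247 of 250 bases, and in both the match began 104 bases before the start. The match of Dnajb4 began 14 bases before its start. For a gene with several windows the one with most matches was printed. The other window of Dnajb4, at its upstream start (chr3:152210034-152210333), held 0 matches. Neither of the windows given for Dnajb1 held these letters, which says nothing about the factor at this gene.

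Promoter sequence was given for 29 of the 37 members, in windows of 250 bases before to 50 after each start. A 2-unit match was present for 14 of the 29 (48.3%), against 17.0% of the 27025 genes with a promoter sequence. A chain of 3 units, made of matches 5 bases apart, was present for 5 of the 29 (17.2%), against 0.662% of all genes. Hspd1 and Hspe1, both among the 5, hold the same bases read from opposite strands. The near-identical Hspa1a and Hspa1b both count among the 14. The members with a match in any of their windows were Bag3, Chordc1, Dnaja1, Dnajb4, Dnajb6, Fkbp4, Hspa1a, Hspa1b, Hspb1, Hspb6, Hspb8, Hspd1, Hspe1 and Hsph1. Hsf1, Hspa8, Hspa9, Hspa13, Hspb2, Cryab, Hsp90aa1 and Hsp90ab1 had no entry.

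Gene counts per library totalled 20599904 to 24949010 under vehicle and 21084749 to 27852630 under R-propranolol, and members took 0.790% to 1.04% of them. All 10 endothelial markers had reads in every tumor, with a summed level of 462 to 588 CPM under vehicle and 487 to 956 CPM under R-propranolol. CPM are counts scaled to a common library size, with sizes adjusted by TMM, a method that sets aside the most extreme genes. R-propranolol-treated tumor 5 stood apart. Its 20 skeletal muscle markers summed to 228350 CPM (16.3% of its counts), against 548 and 565 CPM in vehicle-treated tumors 1 and 3 and 30.4 to 45.03 CPM in the other 6 tumors, where 1 to 6 of the 20 were at 0. Results are therefore given for all 9 tumors and for 8 tumors without tumor 5.

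No member passed edgeR's test across all genes in either comparison, and 3 patterns were seen in the values. The stress-inducible Hsp70 gene Hspa1b and its partner Dnajb1 had higher means in R-propranolol-treated tumors 1 to 4 than under vehicle, by 2.06-fold and 1.31-fold. Both had their lowest value of all tumors in R-propranolol-treated tumor 5, at 21.0 and 35.6 CPM. Of edgeR, DESeq2 and limma-voom only DESeq2 called the difference, and only without tumor 5. The abundant constitutive members Hspa8, Hsp90ab1, Hspa5 and Hspd1 had overlapping groups and log2 fold changes of -0.17 to 0.04 with all tumors. The 6 small heat shock proteins were 5.49 to 157 times higher in R-propranolol-treated tumor 5 than the median of the other 8 tumors, and without it their log2 fold changes lay between -0.03 and 0.72.

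With all 9 tumors, edgeR's quasi-likelihood test called 0 of 37 members and 0% of the 13901 genes tested at an adjusted p under 0.05 (Benjamini-Hochberg). The smallest adjusted p of any gene was 0.876 by edgeR, and 320 genes had an unadjusted p under 0.05. DESeq2 called 2 genes, neither a member, and limma-voom 0. For Hspb1, Hspb6, Hspb7, Hspb8 and Cryab DESeq2 gave no adjusted p. At an unadjusted p under 0.05, 2 members were higher under R-propranolol, Hspb7 and Dnajb4, against 2.01% of all genes tested. In the other direction 0 members were lower, against 0.288% of all genes. Groups that did not overlap were seen for 0 members, against 0.633% of all genes with every R-propranolol-treated tumor above and 0.626% with every one below. The mean was higher under R-propranolol for 22 of 37 members, against 54.3% of all genes, and the median log2 fold change was 0.09 over members and 0.03 over all genes. Scaling by library size alone moved the median of all genes to -0.10, left 17 members with a higher mean, and turned Hspa8, Hspa9, Hsph1, Chordc1 and Fkbp4 from a positive to a negative value. The scaling factor was 0.753 in R-propranolol-treated tumor 5 and 0.966 to 1.10 in the others.

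Without R-propranolol-treated tumor 5, edgeR called 0 members and 0% of the 13743 genes tested, and the smallest adjusted p was 0.9995, with 519 genes at an unadjusted p under 0.05. Dnajb1 and Hspa1b were higher at an unadjusted p under 0.05, against 2.65% of all genes, and Dnajb5 was lower, against 1.13%. The groups did not overlap for Dnajb1, where R-propranolol was above (1.83% of all genes), and for Dnajb5, where it was below (1.09% of all genes). Again 22 members had a higher mean under R-propranolol, against 53.7% of all genes, with a median log2 fold change of 0.03 over members and 0.01 over all genes. DESeq2 on these 8 tumors called 20 genes, among them Dnajb1 and Hspa1b, while limma-voom called 0 genes and left 471 at an unadjusted p under 0.05. DESeq2 and limma-voom were run on the 8 tumors after the values had been seen.

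**Figure D1:**
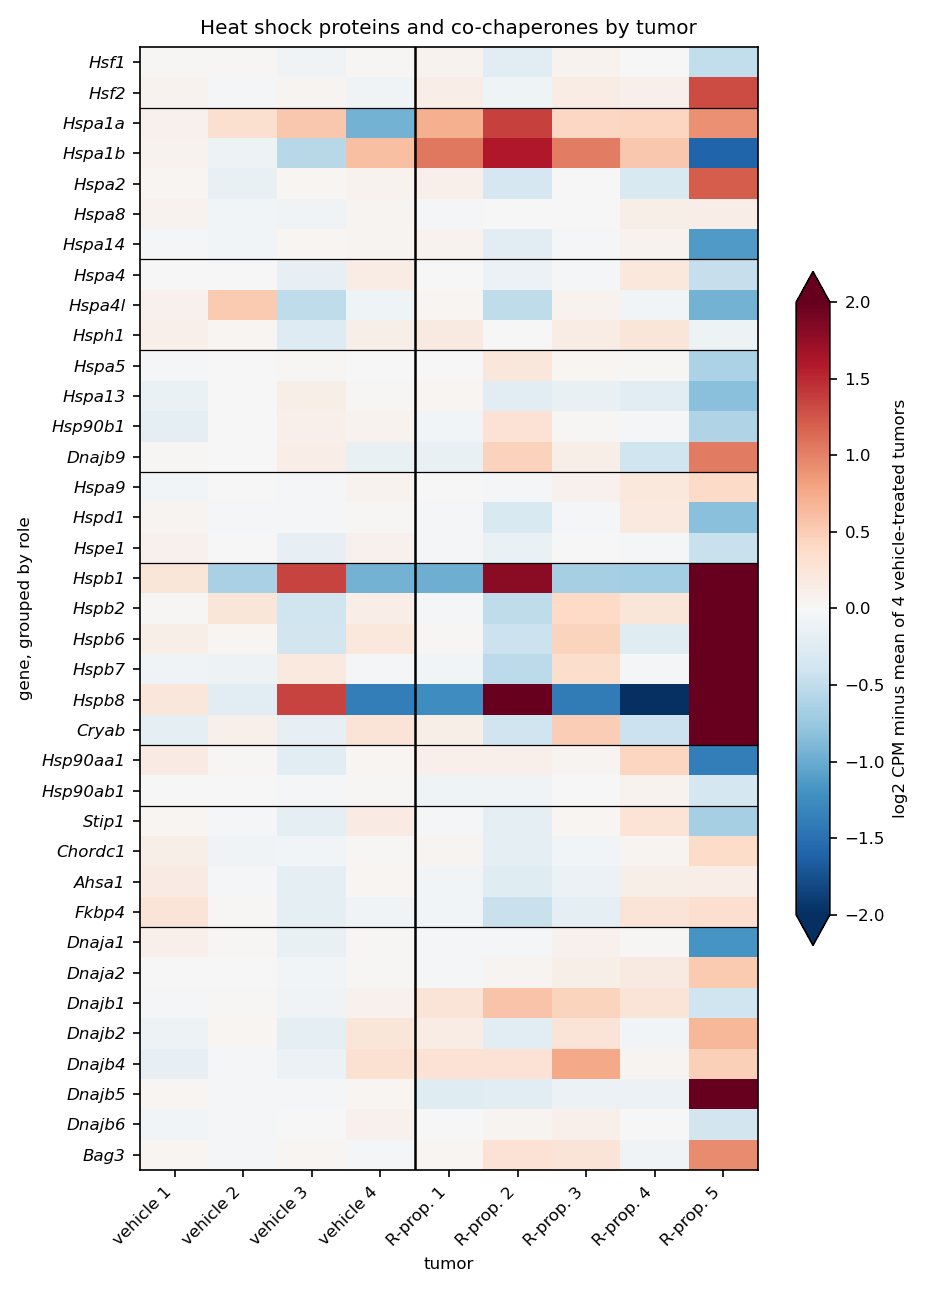
Log2 CPM of each of the 37 members (rows, grouped by role between the horizontal lines) in each of the 9 tumors (columns), minus the mean of the 4 vehicle-treated tumors, on a color scale from -2 (blue) to 2 (red) with values beyond it in the end colors. The last column, R-propranolol-treated tumor 5, is red in all 6 small heat shock proteins and blue in both cytosolic Hsp90 genes, and Hspa1b and Dnajb1 are red in R-propranolol-treated tumors 1 to 4.

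Hsf1, the factor that switches on the heat shock genes, was at 86.8, 86.0, 80.6 and 86.7 CPM in vehicle-treated tumors 1 to 4 and at 89.3, 72.9, 89.7, 84.2 and 60.7 CPM in R-propranolol-treated tumors 1 to 5. Hsf2, a related factor active in development, was at 17.5, 16.2, 17.3 and 15.9 CPM under vehicle and at 18.3, 15.7, 18.4, 17.8 and 41.0 CPM under R-propranolol. The groups overlapped for both genes, and tumor 5 had the lowest Hsf1 and the highest Hsf2 of all tumors. The log2 fold change of Hsf1 was -0.10 (standard error (SE) 0.13) with all 9 tumors and -0.02 (SE 0.08) without tumor 5. That of Hsf2 was 0.41 (SE 0.29) and 0.07 (SE 0.09).

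Hspa1b, one of a pair of near-identical genes for the stress-inducible Hsp70, was at 66.9, 59.5, 43.5 and 96.8 CPM under vehicle and at 133, 195, 129, 93.3 and 21.0 CPM under R-propranolol. R-propranolol-treated tumors 1, 2 and 3 lay above every vehicle-treated tumor, tumor 4 lay just under vehicle-treated tumor 4, and tumor 5 was the lowest of all 9. The log2 fold change was 0.78 (SE 0.53, unadjusted p = 0.173 by edgeR) with all tumors. Without tumor 5 it was 1.04 (SE 0.28, 2.06-fold), with an unadjusted p of 0.00500 and an adjusted p of 0.9995 by edgeR, and it ranked 39 of 13743 genes by p. On mean log2 CPM, the exact permutation p was 0.468 over all groupings of the 9 tumors. Over the 70 groupings of 8 tumors the exact permutation p was 0.0571, where the smallest p possible is 0.0286. DESeq2 gave an adjusted p of 0.0488 on the 8 tumors and limma-voom 0.9998.

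Hspa1a, the other inducible copy, was at 5.68, 6.74, 7.78 and 2.80 CPM under vehicle and at 8.82, 13.9, 7.15, 7.25 and 10.2 CPM under R-propranolol, from 59 to 348 reads a tumor. Tumors 1, 2 and 5 lay above the vehicle-treated tumors, and tumors 3 and 4 lay inside their range. Both genes have a single exon, on the minus strand of chromosome 17 in GRCm38, Hspa1b at chr17:34956436-34959238 and Hspa1a at chr17:34969190-34972156. The log2 fold change was 0.72 (SE 0.33, unadjusted p = 0.0590 by edgeR, 0.0476 by the exact permutation test) and 0.69 (SE 0.34) without tumor 5. Of the 150-base stretches in their transcripts, 39.7% of those of Hspa1a and 40.5% of those of Hspa1b occur unchanged in the other copy or in Hspa1l, and Hspa1a shares 564 exon bases with Gm20481 on the other strand, so how reads were split between the copies is uncertain. The 2 genes summed, an alternative chosen once values were known, gave a log2 fold change of 0.77 (SE 0.46, unadjusted p = 0.125 by edgeR's quasi-likelihood test) with all tumors. Without tumor 5 the sum gave 1.02 (SE 0.25), with an unadjusted p of 0.00338 and an adjusted p of 0.9995 by edgeR.

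Hspa8, the constitutive Hsc70 and the most abundant cytosolic Hsp70 gene, was at 1029, 937, 928 and 1010.4 CPM under vehicle and at 949.7, 966, 977, 1057 and 1064 CPM under R-propranolol, with overlapping groups and a log2 fold change of 0.04 (SE 0.12). Per length of exon, the share of Hspa1a and Hspa1b was taken in the summed level of Hspa1a, Hspa1b, Hspa8 and Hspa2, without Hspa14. It was 9.58%, 9.59%, 7.62% and 12.9% under vehicle and 18.3%, 24.6%, 17.4%, 12.6% and 4.08% under R-propranolol. The share was above the vehicle range in R-propranolol-treated tumors 1, 2 and 3, inside it in tumor 4 and below it in tumor 5. Hspa2, a relative rich in testis, had a log2 fold change of 0.26 (SE 0.33) with all tumors and -0.13 (SE 0.13) without tumor 5, where it was at 24.7 CPM against 8.41 to 11.4 CPM in the others. Hspa14, a ribosome-linked Hsp70, had values of -0.19 (SE 0.22) and -0.02 (SE 0.08).

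Immediate-early genes, listed as a possible sign of handling, were also higher on average. Their summed level was 836 to 922 CPM under vehicle and 1215, 1545, 1458, 970 and 1231 CPM in R-propranolol-treated tumors 1 to 5. All 15 had a higher mean under R-propranolol. At an unadjusted p under 0.05 by edgeR 6 of them were higher, against 2.01% of all genes. Without tumor 5 it was 9, against 2.65%, and 0 passed the adjusted threshold in either comparison. From its sequencing of these tumors the paper reports Egr1 and Fos, both in this list, as raised by R-propranolol. It also names Nr4a1, also listed, as raised by propranolol. The paper's report comes from the same data and is not separate support. The sources do not say how handling compared between the groups. As a share of all counts, without TMM, the sum was 0.0917% to 0.0959% under vehicle, 0.101% to 0.149% in R-propranolol-treated tumors 1 to 4 and 0.0878% in tumor 5, so that in tumor 5 its place against vehicle turned with the scaling. The part of the immediate-early signal, and of tissue handling, in the Hspa1b difference was not tested.

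Dnajb1 (chr8:83608193-83612653, plus strand, GRCm38), the main J protein partner of inducible Hsp70, was at 46.3, 47.9, 44.7 and 49.8 CPM under vehicle and at 56.6, 70.3, 63.8, 56.6 and 35.6 CPM under R-propranolol. Tumors 1 to 4 all lay above every vehicle-treated tumor, and tumor 5 lay below all of them. The log2 fold change was 0.26 (SE 0.18, unadjusted p = 0.178 by edgeR) with all tumors. Without tumor 5 it was 0.39 (SE 0.08, 1.31-fold), with an unadjusted p of 0.00116 and an adjusted p of 0.9995 by edgeR, rank 7 of 13743 genes. The exact permutation test gave p = 0.0286 over 8 tumors, the smallest it can give. DESeq2 gave an adjusted p of 0.0279 on the 8 tumors and limma-voom 0.9998. With each further tumor left out as well, the log2 fold change stayed between 0.33 and 0.42 for Dnajb1 and between 0.83 and 1.28 for Hspa1b.

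**Figure D2:**
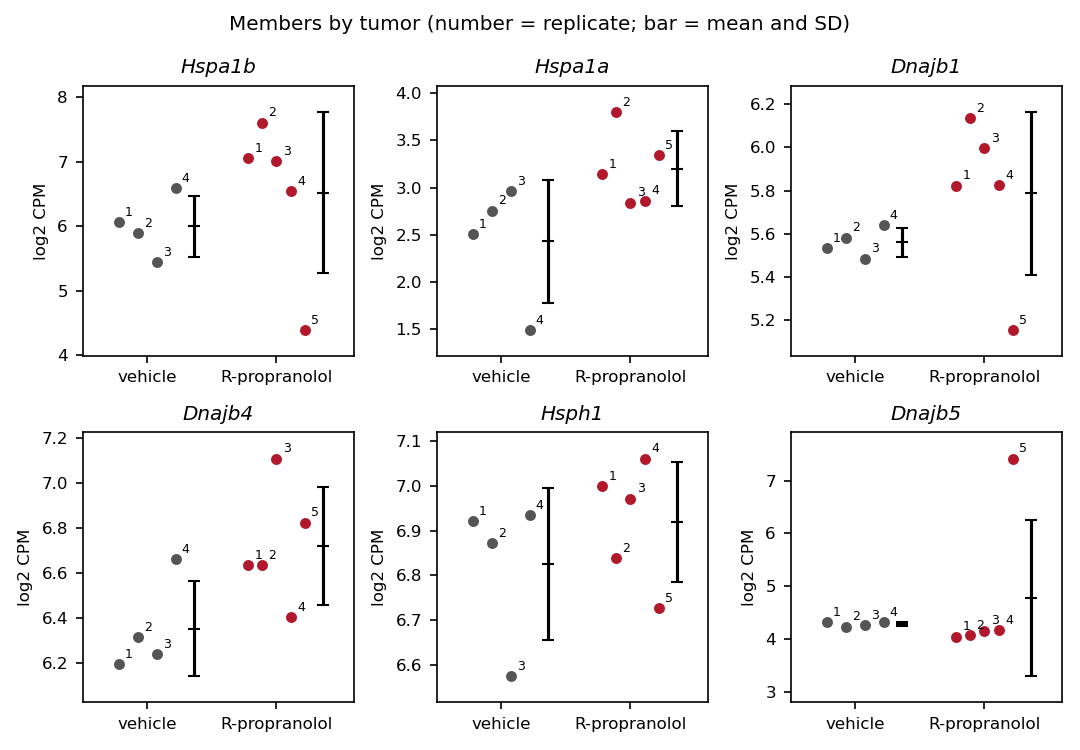
Log2 CPM of Hspa1b, Hspa1a, Dnajb1, Dnajb4, Hsph1 and Dnajb5 in each vehicle-treated (grey) and R-propranolol-treated (red) tumor, with the replicate number beside each point and the mean and standard deviation (SD) of each group as a bar. R-propranolol-treated tumor 5 is the lowest point for Hspa1b and Dnajb1 and the highest for Dnajb5, where it lies at 7.42 against 4.05 to 4.17 in the other 4 treated tumors.

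Dnajb4, a J protein abundant in muscle and heart, was at 73.2, 79.5, 75.4 and 101 CPM under vehicle and at 99.4, 99.5, 138, 84.6 and 113 CPM under R-propranolol. Only tumors 3 and 5 exceeded the highest vehicle-treated tumor. The log2 fold change was 0.38 (SE 0.16, unadjusted p = 0.0443 and adjusted p = 0.876 by edgeR, 0.0556 by the exact permutation test) and 0.35 (SE 0.16, unadjusted p = 0.0586) without tumor 5. Dnajb5, another cytosolic J protein, was at 19.9, 18.8, 19.1 and 19.98 CPM under vehicle and at 16.5, 16.9, 17.9, 17.95 and 171 CPM under R-propranolol. Tumors 1 to 4 were below every vehicle-treated tumor and tumor 5 was 9.29 times the median of the other 8. Its log2 fold change was 1.30 (SE 0.80, unadjusted p = 0.140 by edgeR) with all tumors and turned to -0.17 (SE 0.07, unadjusted p = 0.0446 by edgeR, exact permutation p = 0.0286) without tumor 5. On these 8 tumors edgeR's unadjusted p was 0.0572 with vehicle-treated tumors 1 and 2 summed, 0.112 in the replicate block and 0.0434 to 0.0993 with each further tumor left out, where it stayed under 0.05 only without R-propranolol-treated tumor 4. The log2 fold change lay between -0.19 and -0.16 with each further tumor left out.

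Dnaja2 was the most abundant J protein per exon length but not by CPM. It was at 151, 150.3, 144 and 152 CPM under vehicle and at 145, 156, 162, 169 and 213 CPM under R-propranolol. Tumors 2 to 5 exceeded the vehicle range and tumor 1 lay within it, with log2 fold changes of 0.18 (SE 0.12) and 0.08 (SE 0.06) without tumor 5. Bag3, an exchange factor that hands Hsp70 clients to autophagy and is abundant in muscle, was at 80.1, 75.8, 80.0 and 76.3 CPM under vehicle and at 80.0, 95.9, 92.8, 74.2 and 150.1 CPM under R-propranolol. Tumors 2, 3 and 5 were above the vehicle range, and the log2 fold change was 0.34 (SE 0.20, unadjusted p = 0.123 by edgeR) and 0.13 (SE 0.08) without tumor 5. Dnaja1, Dnajb2 and Dnajb6, which deliver clients to Hsp70 in the cytosol and nucleus, had log2 fold changes of -0.16, 0.18 and -0.03, and of 0.01, 0.04 and 0.04 without tumor 5. By CPM Dnaja1 had the higher vehicle mean (249 CPM against 149 CPM for Dnaja2), over 8629 annotated exon bases against 2975. Dnaja1 shares 608 exon bases with Smu1 on the other strand.

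Hsph1, the heat-inducible Hsp110, was at 121, 117, 95.2 and 122 CPM under vehicle and at 128, 114, 125.5, 134 and 106 CPM under R-propranolol. Tumors 1, 3 and 4 were above the vehicle range, and the log2 fold change was 0.09 (SE 0.11) and 0.14 (SE 0.09) without tumor 5. Hspa4, the most abundant of these exchange factors, was at 306, 307, 275 and 341 CPM under vehicle and at 307, 284, 298, 357 and 223 CPM under R-propranolol, with log2 fold changes of -0.07 (SE 0.14) and 0.02 (SE 0.10). Hspa4l, its relative, was at 44.7, 60.7, 29.5 and 39.5 CPM under vehicle and at 43.1, 29.7, 44.3, 40.6 and 21.9 CPM under R-propranolol. All but tumor 5 of the treated tumors lay inside the wide vehicle range of Hspa4l, and its log2 fold change was -0.28 (SE 0.26) and -0.15 (SE 0.22) without tumor 5.

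Hsp90ab1, the constitutive cytosolic Hsp90, was the most abundant member. It was at 2396, 2388, 2333 and 2437 CPM under vehicle and at 2243, 2284, 2382, 2504 and 1873 CPM under R-propranolol, with overlapping groups and log2 fold changes of -0.08 (SE 0.15) and -0.02 (SE 0.08). Hsp90aa1, the inducible cytosolic Hsp90, ranged from 504 to 664 CPM under vehicle and from 616 to 794 CPM in R-propranolol-treated tumors 1 to 4, and was at 226 CPM in tumor 5. Its log2 fold change was -0.04 (SE 0.31) and turned to 0.17 (SE 0.12) without tumor 5. Hsp90aa1 made up 14.2% to 17.5% of the cytosolic Hsp90 level per exon length under vehicle, 16.5% to 19.5% in R-propranolol-treated tumors 1 to 4 and 8.43% in tumor 5.

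Stip1, the adaptor that links Hsp70 to Hsp90, was at 244, 235, 209 and 268 CPM under vehicle and at 234, 210.3, 243, 289 and 150.3 CPM under R-propranolol, and its log2 fold change was -0.09 (SE 0.18) and 0.03 (SE 0.11). Chordc1, an Hsp90-binding protein, had values of 0.06 (SE 0.12) and -0.03 (SE 0.08), and Ahsa1, which speeds the Hsp90 ATPase, had -0.03 (SE 0.11) and -0.08 (SE 0.10). Fkbp4, the immunophilin that joins steroid receptor complexes, had 0.00 (SE 0.18) and -0.09 (SE 0.16). None of the 4 Hsp90 co-chaperones had an unadjusted p under 0.05 by edgeR in either comparison.

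Hspa5, the Hsp70 of the endoplasmic reticulum (BiP), was at 974, 1010.0, 1017 and 997 CPM under vehicle and at 1006, 1166, 1023, 1020.1 and 644 CPM under R-propranolol. Tumors 2, 3 and 4 exceeded the vehicle range, tumor 5 was the lowest, and the log2 fold change was -0.04 (SE 0.18) and 0.07 (SE 0.07) without tumor 5. Hsp90b1, the Hsp90 of the same compartment, was at 762, 860.4, 925 and 899 CPM under vehicle and at 829, 1048, 876, 837 and 564 CPM under R-propranolol, with log2 fold changes of -0.05 (SE 0.18) and 0.06 (SE 0.10). Dnajb9, a BiP cofactor induced by unfolded proteins, was at 25.7, 25.3, 27.7 and 23.0 CPM under vehicle and at 22.9, 35.1, 27.5, 19.3 and 52.2 CPM under R-propranolol. Tumors 2 and 5 were above the vehicle range of Dnajb9 and tumors 1 and 4 below it, and the log2 fold change was 0.30 (SE 0.28) and 0.04 (SE 0.17). Hspa13, a microsomal Hsp70 relative, was at 73.2, 80.1, 87.0 and 82.2 CPM under vehicle and at 82.5, 69.5, 72.6, 69.4 and 45.3 CPM under R-propranolol. All but tumor 1 of the treated tumors were below its vehicle range, and its log2 fold change was -0.25 (SE 0.16, unadjusted p = 0.158 by edgeR) and -0.13 (SE 0.08, unadjusted p = 0.126).

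Hspd1, the mitochondrial chaperonin Hsp60, was at 526, 494, 494 and 519 CPM under vehicle and at 499, 410.2, 492, 582 and 284 CPM under R-propranolol, and had log2 fold changes of -0.17 (SE 0.20) and -0.04 (SE 0.11). Hspe1, its partner Hsp10, was at 173, 164, 147 and 175 CPM under vehicle and at 161, 150.4, 164, 159.8 and 120.2 CPM under R-propranolol, with -0.12 (SE 0.12) and -0.05 (SE 0.07). The 2 genes lie head to head and share 112 exon bases on opposite strands. The groups overlapped for both, and tumor 5 was the lowest for both. Hspa9, the mitochondrial Hsp70, ranged from 435 to 474 CPM under vehicle and from 436 to 587 CPM under R-propranolol, with the highest value in tumor 5 (the lowest with library size alone), and had log2 fold changes of 0.13 (SE 0.12) and 0.06 (SE 0.08).

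The small heat shock proteins, which are abundant in skeletal and cardiac muscle, were far higher in tumor 5 than in any other tumor. Hspb7 was at 6.46, 6.28, 7.74 and 6.65 CPM under vehicle and at 6.53, 4.72, 8.59, 6.68 and 866 CPM under R-propranolol. Hspb6 was at 29.95, 28.5, 21.6 and 32.2 CPM under vehicle and at 28.3, 20.5, 37.8, 23.4 and 1179 CPM under R-propranolol. Cryab, the lens and muscle protein alpha-B crystallin, was at 45.1, 55.8, 46.4 and 62.3 CPM under vehicle and at 56.4, 39.3, 72.9, 38.5 and 859 CPM under R-propranolol. For all 3 genes R-propranolol-treated tumors 1 to 4 straddled the vehicle values, and tumor 5 was 16.8 to 131 times the median of the other 8.

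Hspb2, a muscle gene that lies head to head with Cryab, was at 3.31, 3.85, 2.46 and 3.56 CPM under vehicle and at 3.18, 2.28, 4.31, 3.85 and 18.9 CPM under R-propranolol, and the neighbors share 252 exon bases on opposite strands. Hspb1, the heat-inducible Hsp25 of the mouse, was at 4.43, 2.39, 9.60 and 1.95 CPM under vehicle and at 1.91, 13.1, 2.37, 2.34 and 315 CPM under R-propranolol. Hspb8, which works with Bag3, was at 3.36, 2.47, 7.34 and 1.09 CPM under vehicle and at 1.1999, 20.8, 1.08, 0.697 and 287 CPM under R-propranolol. Hspb1 and Hspb8 were also high in R-propranolol-treated tumor 2 and vehicle-treated tumor 3, while Hspb2, Hspb6, Hspb7 and Cryab were not. Of the 150-base stretches of Hspb1, 39.1% also occur in the pseudogene Hsp25-ps1.

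With all 9 tumors the log2 fold changes were 4.72 (SE 1.91) for Hspb7, 4.12 (SE 1.94) for Hspb8, 3.86 (SE 1.78) for Hspb1, 3.20 (SE 1.42) for Hspb6, 2.02 (SE 1.03) for Cryab and 0.97 (SE 0.63) for Hspb2. Hspb7 alone had an unadjusted p under 0.05 (0.0361 by edgeR, adjusted p = 0.876, exact permutation p = 0.762). Without tumor 5 the values were -0.03 (SE 0.19), 0.72 (SE 1.12), 0.09 (SE 0.75), -0.03 (SE 0.20), -0.02 (SE 0.22) and 0.05 (SE 0.25) in the same order. Of the skeletal muscle markers, 11 could be tested without tumor 5, and all 11 had a lower mean under R-propranolol. At an unadjusted p under 0.05 by edgeR 10 of them were lower, against 1.13% of all genes. The 20 markers summed to 548 and 565 CPM in vehicle-treated tumors 1 and 3. The sum was 30.4 and 41.8 CPM in vehicle-treated tumors 2 and 4, and 37.9 to 45.03 CPM in R-propranolol-treated tumors 1 to 4. In tumor 5 adipocyte markers summed to 4698 CPM against 53.9 to 375 CPM in the others. Of the 10 mural and smooth muscle markers Des is also among the skeletal muscle markers, and without it the remaining 9 summed to 421 CPM in tumor 5, 639.9 CPM in R-propranolol-treated tumor 2 and 146 to 204 CPM in the other 7. Macrophage markers summed to 3857 CPM in tumor 5 and 3306 CPM in R-propranolol-treated tumor 2, against 722 to 2025 CPM in the others. The part of muscle, mural, fat or macrophage RNA in the level of each small heat shock protein was not tested, and in bulk RNA a different number of cells of a type cannot be told apart from a different amount of RNA per cell.

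**Figure D3:**
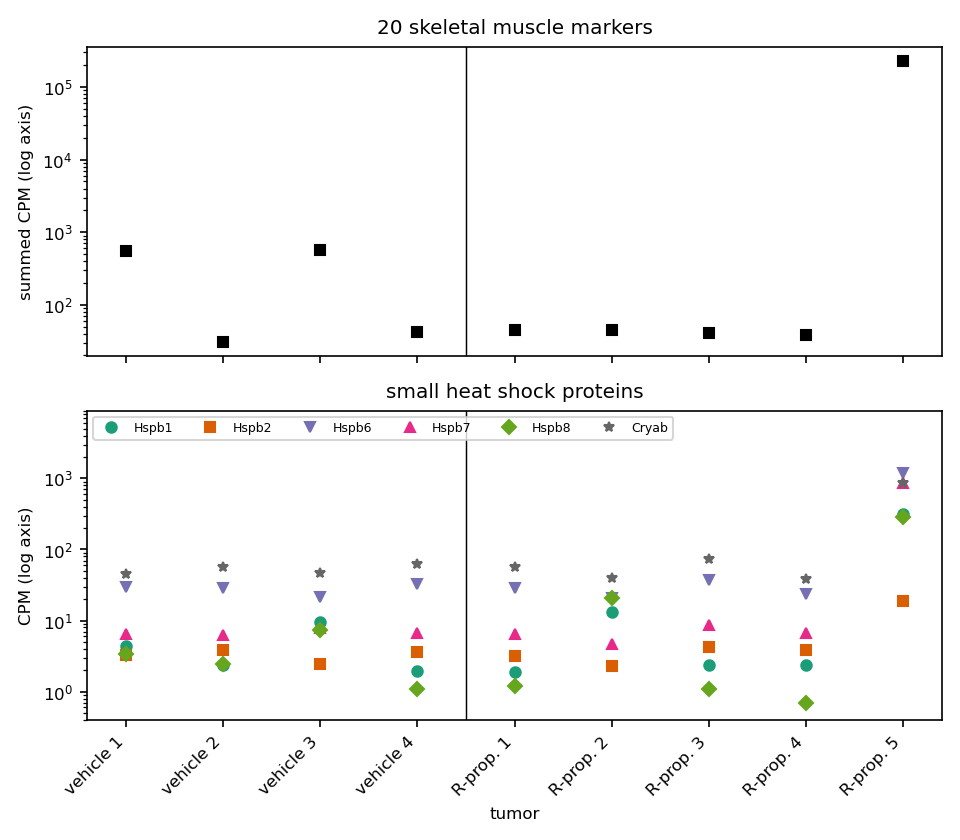
Top, the summed CPM of 20 skeletal muscle markers in each tumor, and bottom, the CPM of the 6 small heat shock proteins in the same tumors, both on log axes. All 6 genes are highest in R-propranolol-treated tumor 5, where the muscle markers reach 228350 CPM, and Hspb1 and Hspb8 are also high in R-propranolol-treated tumor 2, where these markers sum to 45.03 CPM.

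Tumor 5 also differed in other roles. With TMM it lay above all other 8 tumors for 17 members, below all of them for 16 and within their range for 4. All genes were not counted in this way, so whether these numbers are particular to the members is not known. With library size alone, added after the values had been seen, the split was 11 above, 20 below and 6 within. Hspa8 and Hspa9 turned from above to below, Dnaja2, Dnajb2, Chordc1 and Fkbp4 from above to within, and Hsph1 and Ahsa1 from within to below, while the other 29 kept their place. The ratios that follow are with TMM. Both cytosolic Hsp90 genes were below, at 0.362 times the median of the others for Hsp90aa1 and 0.785 times for Hsp90ab1. Hspa1b was at 0.221 times the median of the others, Dnaja1 at 0.434 times and Hspa14 at 0.453 times. Above the others were, besides the small heat shock proteins, Dnajb5 at 9.29 times, Hsf2 at 2.36 times, Hspa2 at 2.31 times, Dnajb9 at 2.04 times and Bag3 at 1.88 times. The 8 members taken as rich in muscle, the small heat shock proteins with Hspa2 and Bag3, all had a higher mean under R-propranolol with all tumors (median log2 fold change 2.61), and 4 of the 8 did without tumor 5 (median 0.01). This list was made with earlier results of these data known. It holds Hspa2, described above as rich in testis, and leaves out Dnajb4, described as abundant in muscle and heart. In tumor 5 Dnajb4 was at 1.23 times the median of the others, within their range. For the 19 members taken as classic heat-induced genes the medians were 0.04 and 0.01. In both comparisons 11 of the 19 were higher, against 54.3% of all genes with all tumors and 53.7% without tumor 5. The lists overlap, with Hspb1 in both.

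**Figure D4:**
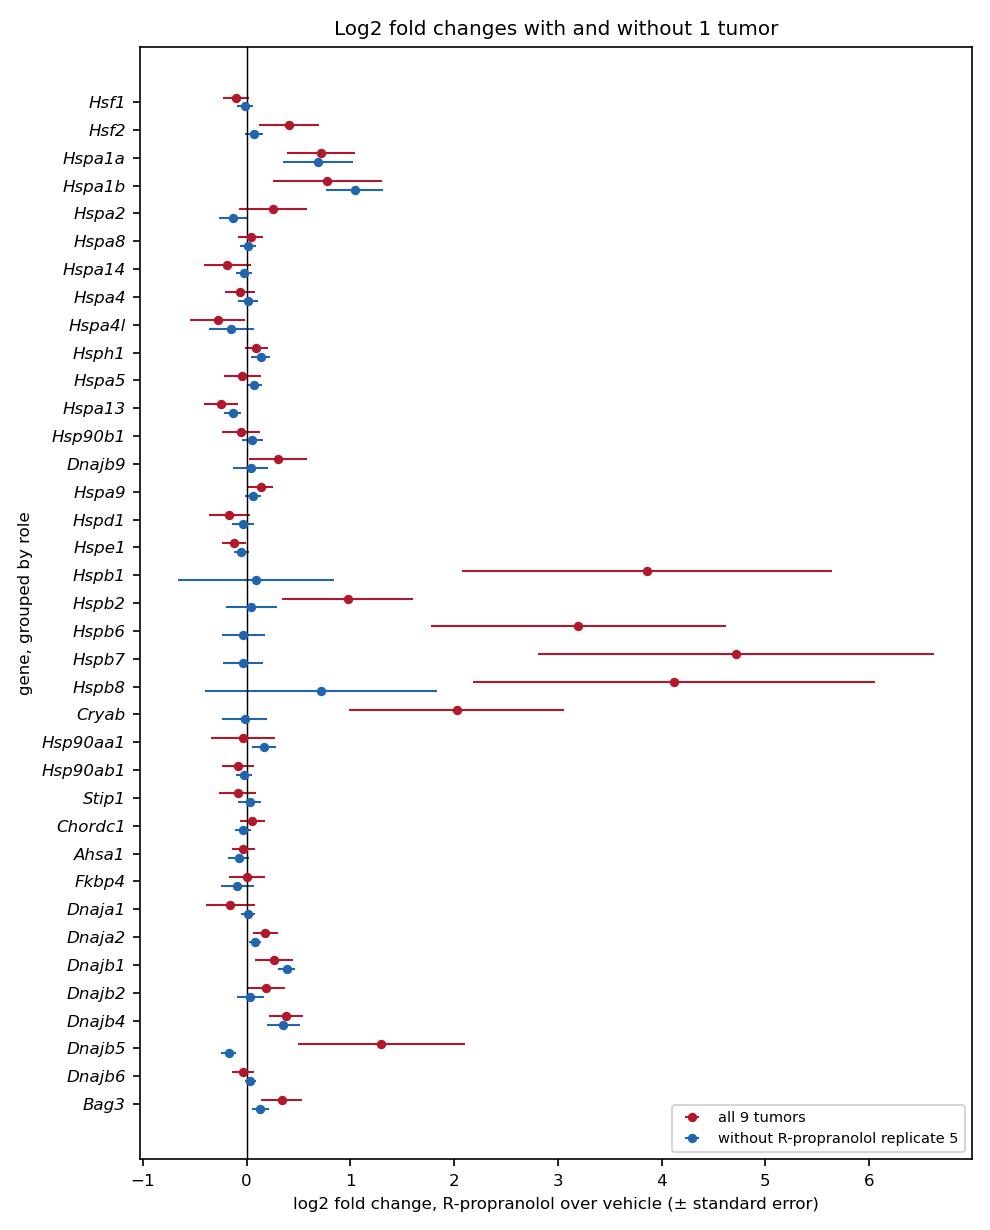
Log2 fold change of each member, R-propranolol over vehicle, with its standard error as a bar, fitted by edgeR with all 9 tumors (red) and without R-propranolol-treated tumor 5 (blue). The small heat shock proteins and Dnajb5 lie far to the right in red and near 0 in blue except Hspb8 at 0.72, and Hspb1 and Hspb8 keep wide bars, while Hspa1b moves from 0.78 to 1.04 and Dnajb1 from 0.26 to 0.39.

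Levels per length were compared within the vehicle-treated tumors, as CPM per kilobase of exon. Exon length counts the merged exons of all annotated transcripts, so the order and the shares per length also depend on the annotation. Hsp90ab1 was highest at 796 ± 14.2 CPM per kilobase (SD, n = 4), followed by Hspa5 at 236 ± 4.55, Hspa8 at 227 ± 11.9, Hsp90b1 at 214 ± 17.7 and Hspd1 at 192 ± 6.38 CPM per kilobase. The ranges of Hspa5, Hspa8, Hsp90b1 and Hspd1 overlapped from each to the next, and over the whole order 29 of 36 neighbors overlapped. The inducible genes lay lower, with Hspa1b at 23.8 ± 7.97, Hsph1 at 15.7 ± 1.75, Dnajb1 at 14.7 ± 0.684 and Hspa1a at 1.94 ± 0.723 CPM per kilobase. Hspb8 at 1.83 ± 1.38 and Hsf2 at 1.74 ± 0.0838 CPM per kilobase were the lowest. In R-propranolol-treated tumor 5 the order differed, with Cryab at rank 2 (581 CPM per kilobase), Hspb6 at rank 3 (513), Hspb7 at rank 4 (313) and Hspb1 at rank 5 (306).

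**Figure D5:**
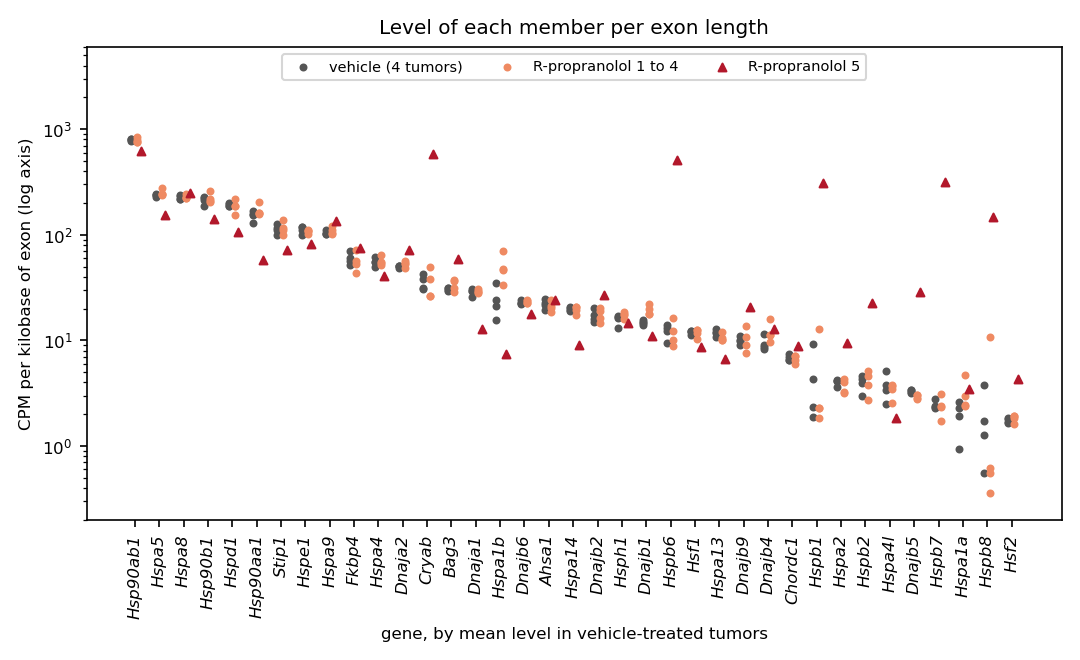
Level of each member in CPM per kilobase of exon (log axis), ordered by the mean of the vehicle-treated tumors, for vehicle-treated tumors (grey), R-propranolol-treated tumors 1 to 4 (orange) and R-propranolol-treated tumor 5 (red triangles). Grey and orange points cover similar ranges for most genes from Hsp90ab1 at 796 to Hsf2 at 1.74, the orange points lie higher for Hspa1b and Dnajb1, and the triangles of Cryab, Hspb6, Hspb7, Hspb1 and Hspb8 stand well above.

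The spread between tumors differed widely among members. Within groups, and without tumor 5, the median SD of the members was 0.141 on the log2 scale, and 24 of 37 members were under 0.2. Dnajb6, Dnajb5 and Hsp90ab1 varied least (SD 0.0511, 0.0516 and 0.0532). Hspb8 (1.77), Hspb1 (1.17) and Hspa1a (0.56) varied most, followed by Hspa1b (0.46), and all 4 were highest in R-propranolol-treated tumor 2 among these 8 tumors. The 14 members with a heat shock element match had a median log2 fold change of 0.06 without tumor 5 and the 15 members without one had 0.03, with 9 of each higher under R-propranolol.

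Other chaperone genes were followed through 91 genes, of which 89 were tested. With all tumors 47 of the 89 (52.8%) had a higher mean under R-propranolol, against 54.3% of all genes. At an unadjusted p under 0.05 by edgeR 2 (2.25%) were higher, against 2.01% of all genes, and 0 were lower. The 2 were Unc45b, the muscle myosin chaperone, with a log2 fold change of 5.29 (SE 2.16), and Dnaja4, with 5.08 (SE 2.15), and both had their highest value in tumor 5. Without tumor 5, 48 (53.9%) had a higher mean, against 53.7% of all genes. By edgeR, 1 (1.12%) was lower at an unadjusted p under 0.05, against 1.13% of all genes, and 0 were higher. The 1 lower gene was Dnajb11 (-0.13, SE 0.05), a BiP cofactor. In the TRiC chaperonin, which folds actin and tubulin, the smallest p in each direction belonged to Cct4 (0.06) and Cct3 (-0.18). In prefoldin, which feeds TRiC, they belonged to Pfdn5 (0.26) and Pfdn6 (-0.17). Ppid (-0.21) and Dnajc9 (-0.14) had the smallest p on the lower side among the other Hsp90 and Hsp70 partners. Hspa12a (2.63) and Hspa12b (-0.17) did so among other heat shock proteins, Herpud1 (0.98) and Dnajb11 (-0.16) among other genes of the endoplasmic reticulum, and Afg3l2 (0.24) and Grpel2 (-0.06) among other mitochondrial chaperones, all as log2 fold changes with all 9 tumors. None passed the adjusted threshold by edgeR. Hspa12a and Herpud1 also had their highest value in tumor 5, at 24.5 and 92.5 CPM, against at most 4.80 and 37.8 CPM in the others. Without tumor 5 the log2 fold change of Herpud1 was 0.38.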

How the data were processed

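RNA was measured in 4 vehicle-treated and 5 R-propranolol-treated bEnd.3 tumors. The authors prepared libraries with the NEBNext Ultra kit and sequenced paired reads. Per the labels, STAR, HTSeq and edgeR were used with the mm10 build. Their versions, the gene annotation and whether counting used strand were not stated in the sources used here. The deposited values are raw counts per gene symbol. Summary rows that name no gene (no feature, 13.4% to 15.4% of each library, ambiguous, 1.81% to 1.98%, and not unique, 3.46% to 7.86%) were left out of library sizes.

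Groups were compared with the quasi-likelihood test of edgeR 4.0.16 (R 4.3.3) after TMM scaling and filterByExpr (minimum count 10, minimum total 15), with Benjamini-Hochberg adjustment over all genes tested. The test was checked on simulated counts. CPM used TMM-scaled library sizes, with a prior count of 0.25 for log2 CPM. Exact permutation tests on mean log2 CPM were two-sided, over all groupings of 4 and 5 tumors (smallest possible p 0.00794) or 70 groupings without R-propranolol replicate 5, and the permutation p-values of single members are not adjusted over the 37 tested. Alternatives were DESeq2 1.42.0 and its size factors, limma-voom (limma 3.58.1), library size alone, other filters, a block by replicate number, vehicle replicates 1 and 2 as 1 summed sample, and the omission of each tumor. A chi-square per gene of 18.8 or more between tumors of a group gave no sign of 1 library deposited under 2 labels. Gene places and exon lengths are from GENCODE M21 (GRCm38), and promoters from RefSeq (GRCm38.p6). Exon length was that of the merged exons of all annotated transcripts of a gene.

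The members, lists and tests were chosen with earlier results of these data known. All 37 members are named. Values per tumor were given for both heat shock factors, the main inducible genes, the small heat shock proteins and 3 genes of the endoplasmic reticulum. They were also given for the most abundant member of each role per exon length, and the 4 members with smallest p in each direction. From each other list of chaperone genes, the gene with the smallest p in each direction was named with its log2 fold change. Hspa1a and Hspa1b summed, every other setting run without R-propranolol replicate 5, the place of that tumor by library size alone and the mural marker sum without Des were chosen once values were known, as was a list of 9 keratinocyte markers, which summed to 2.08 to 16.7 CPM.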

Additional observations from a re-analysis of the deposited data

Results flagged for a closer look

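Within the 2 groups of each of the 37 members, 74 in all, the gap between the most extreme tumor and its nearest neighbor was set against the range of the group, and 14 gaps exceeded the critical value. Chance alone flags about 1 in 20 groups. R-propranolol replicate 5 gave 13 of the 14, and how often it would be flagged over all genes was not counted. On the log2 CPM scale it was far above the other treated tumors for Hsf2 (5.36), Hspa2 (4.63), Hspb6 (10.2), Hspb7 (9.76), Cryab (9.75) and Dnajb5 (7.42). It was far below them for Hspa5 (9.33), Hspa13 (5.50), Hspa14 (5.19), Hsp90aa1 (7.82), Hspe1 (6.91), Dnaja1 (6.78) and Dnajb6 (6.74). Hspb1 and Hspb8, highest in the same tumor, were not among them because replicate 2 was also high. In the vehicle group, replicate 3 was low for Hsf1, at 6.33 against 6.43 to 6.44 in the other 3 tumors.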

How the results depend on the processing

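Over 17 settings and 37 members, 584 of 629 log2 fold changes kept the direction and were not called, and 45 turned, in 20 members. DESeq2 gave no adjusted p for Hspb1, Hspb6, Hspb7, Hspb8 and Cryab, and a missing value was counted as not called. Leaving out each tumor in turn gave -0.129 to 0.41 for Hspa2, -0.137 to 0.0164 for Hspa4, -0.113 to 0.0741 for Hspa5, -0.0311 to 3.6 for Hspb6, -0.0327 to 5.13 for Hspb7, -0.0181 to 2.38 for Cryab, -0.178 to 0.168 for Hsp90aa1, -0.148 to 0.0564 for Hsp90b1, -0.222 to 0.0101 for Dnaja1, -0.172 to 1.59 for Dnajb5, -0.0539 to 0.037 for Dnajb6, -0.185 to 0.0282 for Stip1, -0.0341 to 0.115 for Chordc1, -0.0915 to 0.0427 for Ahsa1 and -0.0909 to 0.113 for Fkbp4, these being the members that turned in at least 1 such setting. Of these, 14 turned without R-propranolol replicate 5, Ahsa1 not among them.

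Deviations of same-numbered tumors from their group means had correlations of -0.283, 0.0879, -0.636 and 0.534. The R-propranolol mean includes replicate 5, so these values cannot show whether the replicate numbers pair the tumors. In the replicate block, where R-propranolol replicate 5 stands alone, 16 members turned, namely Hspa2 (-0.137), Hspa4 (0.0167), Hspa5 (0.0741), Hspb1 (-0.181), Hspb6 (-0.0563), Hspb7 (-0.0546), Hspb8 (-0.493), Cryab (-0.0558), Hsp90aa1 (0.169), Hsp90b1 (0.0563), Dnaja1 (0.0144), Dnajb5 (-0.171), Dnajb6 (0.0394), Stip1 (0.0256), Chordc1 (-0.034) and Fkbp4 (-0.103). With the block, 0 genes passed the adjusted threshold. Before adjustment, edgeR's p was below 0.05 for 3 members and for 283 of all genes. Without the block these numbers were 2 and 320.

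Library size alone lowered the median of all genes from 0.03 to -0.10, turned Hspa8 (-0.101), Hspa9 (-0.0124), Hsph1 (-0.0299), Chordc1 (-0.0954) and Fkbp4 (-0.148), and left 17 rather than 22 members with a higher mean. Fkbp4 also turned with limma-voom (-0.0122) and no filter (-0.018), and Ahsa1 with vehicle replicates 1 and 2 summed (0.00918).

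DESeq2 with all 9 tumors called 2 genes at an adjusted p under 0.05, neither of them a member, against 0 by edgeR. Members at an unadjusted p under 0.05 numbered 2 with all tumors, 1 with library size alone, 1 with limma-voom, 0 with vehicle replicates 1 and 2 summed, and 0 to 5 when each tumor was left out, with 0 without vehicle replicate 1 or 2 and 5 without R-propranolol replicate 4. All genes at that p numbered 320 with all tumors and 0.756, 0.434 and 0.312 times as many in the next 3 settings, 0.322 to 2.30 times when each tumor was left out, with 0.328 and 0.322 times without vehicle replicate 1 and 2 and 2.30 times without R-propranolol replicate 4. The cause of these changes was not tested. Hspa1b stayed between 0.50 and 1.06 and Dnajb1 between 0.15 and 0.39 in every setting of the 9-tumor comparison. Low counts limit Hspa1a, Hspb2 and Hspb8, and counts alone do not separate reads of Hspa1a and Hspa1b.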
